A study of Mus musculus with 2 samples.

Results

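The genes described here are the nuclear-coded genes of respiratory complexes I, III and IV and of the ATP synthase, in immune cells sorted from the mouse cochlea. They were taken by symbol: every name starting with Ndufa, Ndufb, Ndufc, Ndufs, Ndufv, Uqcr, Cox4, Cox5, Cox6, Cox7, Cox8 or Atp5, pseudogene names left out, with at least 20 unique molecular identifiers (UMIs, 1 per captured RNA molecule) over all barcodes. Of 89 matching symbols among 31053 features, 84 passed and 5 did not: 4 entries were at 0 (Cox7b2, Ndufa4l2, Cox8c and one of 2 entries for Atp5o), and Cox4i2 had 9 UMIs. The 84 genes held 257628 of 15753747 UMIs, or 1.64%. By role they comprised 26 accessory genes of complex I (Ndufa, Ndufb and Ndufc), 11 genes of its Ndufs and Ndufv families, 8 complex I assembly factors (Ndufaf), 8 genes of complex III, 15 of complex IV and 16 of the ATP synthase. The prefixes also took genes that are not subunits in the strict sense, namely the Ndufaf genes and Cox7a2l, a supercomplex assembly factor. The genes lay on 19 chromosomes, with at most 9 on one (chromosome 7) and 3 on X.

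The study made one single-cell library from mouse cochleae in 4 pools of 6 mice each: a sham pool, and pools taken 3, 7 and 14 days after noise exposure. In every pool, sham included, the cochleae were digested with Accutase, live CD45+ cells were sorted, and each pool was marked with its own hashtag antibody before all were run together. The submitters' descriptions call the control both sham treated and untreated, and name both version 2 and version 3 of the 3′ chemistry; "sham" is used here, and strain, sex, age and noise level are not given in the sources used here. With 1 pool per condition a difference between days has no replicate check, so no p-value is given for it, and all days share the sham pool. The 4 pools served as replicates only for comparisons between cell classes, where p-values set a difference against the spread between these pools. That spread includes differences between the noise conditions. The edgeR test shares it across genes, so its p-values do not measure a single gene's own spread over the pools.

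Of 1556 barcodes, 1359 carried a single hashtag, 1285 of these passed the quality limits (at least 200 genes and at most 10% mitochondrial UMIs; median 7389 UMIs), and 1103 fell into exactly 1 marker-gated class. Neutrophils were gated on S100a8 with S100a9 (at least 3% of UMIs) and split by the granule genes Camp and Ngp: "granule-making" neutrophils held at least 1% of UMIs in this pair and late neutrophils under 0.2%. B lineage barcodes were split into precursors (at least 2 UMIs of Vpreb1, Igll1, Rag1, Rag2 and Dntt) and later B cells. None of these gates used a respiratory gene. The 10 cochlear non-immune markers summed to at most 24.1 UMIs per 1000000 (CPM) in any gated class.

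The respiratory chain passes electrons from NADH through complex I, complex III, cytochrome c and complex IV to oxygen, and the proton gradient it builds drives the ATP synthase. Most subunits are coded in the nucleus and imported, and 13 are coded in mitochondrial DNA, so an assembled complex needs transcripts from both genomes. Mature neutrophils are known for few mitochondria and for making ATP mainly by glycolysis, whereas lymphocytes and dividing precursors respire more.

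Respiratory transcripts took a smaller share of UMIs in neutrophils than in lymphocytes, and a smaller share in late than in granule-making neutrophils. In late neutrophils the 84 genes held 0.594% of UMIs in the sham pool, 0.592% on day 3, 0.602% on day 7 and 0.595% on day 14. In granule-making neutrophils the shares were 1.12%, 1.02%, 0.725% and 1.10% in the same order. The 2 stages did not overlap in any pool. Of these 2 stages, only the granule-making stage had its day 7 pool apart from the other pools. B precursors held 2.25%, 2.35%, 2.60% and 2.24%, and later B cells held 1.70%, 1.74%, 1.92% and 1.78%, again without overlap. The share was 1.62% to 1.95% in T cells and 1.89% to 2.06% in NK cells. Mononuclear phagocytes ranged from 1.37% to 2.36%, with only 6 to 31 barcodes per pool. Neutrophils between the 2 stages, with 5 to 12 barcodes per pool, held 0.474%, 0.551%, 1.37% and 0.558%; the day 7 barcodes of that class also held 17330 CPM of primary granule genes.

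These shares are of all UMIs, and S100a8 with S100a9 alone took 35.8% to 39.7% of the UMIs of granule-making and 27.1% to 31.5% of those of late neutrophils. With these 2 genes left out of the total, the respiratory share was 1.20% to 1.74% in granule-making and 0.814% to 0.872% in late neutrophils. Barcodes also differed in depth: the median was 15299 UMIs in granule-making neutrophils, 5230 in late neutrophils, 6643 in B precursors and 5200 in later B cells. The median barcode held 118 respiratory UMIs in granule-making neutrophils, 32 in late neutrophils, 121 in B precursors and 77 in later B cells. Late neutrophils and later B cells thus had close medians of all UMIs, but not of UMIs outside S100a8 and S100a9.

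**Figure D1:**
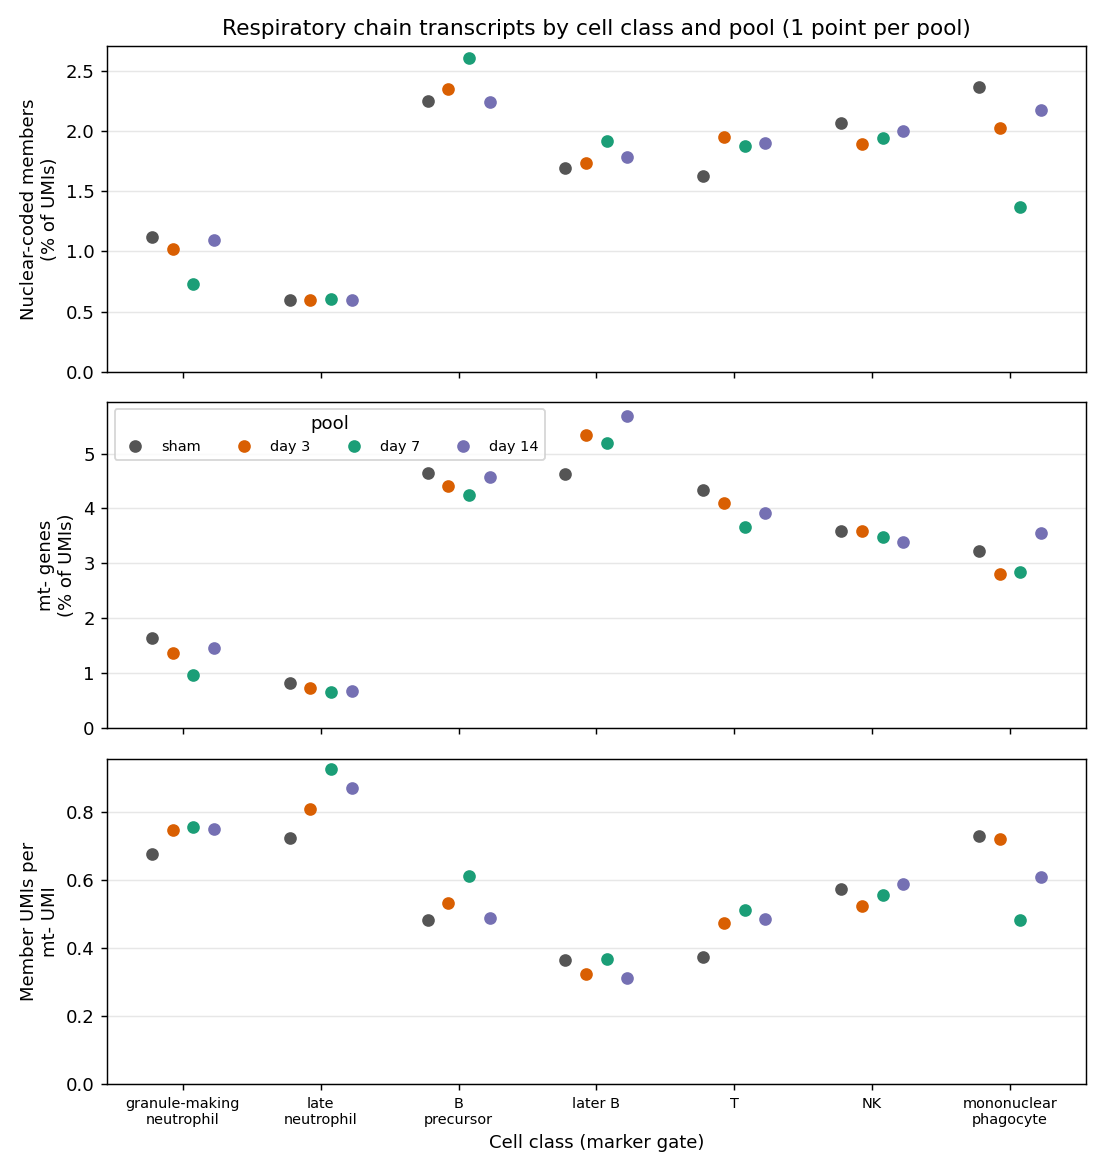
Percent of UMIs in the 84 nuclear-coded genes (top), percent in the mitochondrial-coded (mt-) genes (middle) and their ratio (bottom) by cell class (x axis), with 1 point per pool. Late neutrophils sit between 0.592% and 0.602% in the top panel, below every pool of the other classes drawn, and from 0.725 to 0.927 in the bottom panel, above every pool of later B cells.

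The nuclear-coded and mitochondrial-coded transcripts of the chain did not move in proportion. Transcripts of the 13 mitochondrial-coded protein genes took 0.649% to 0.818% of UMIs in late neutrophils, 0.959% to 1.65% in granule-making neutrophils, 4.24% to 4.65% in B precursors and 4.63% to 5.68% in later B cells. The ratio of nuclear-coded to mitochondrial-coded UMIs was 0.725, 0.808, 0.927 and 0.873 in late neutrophils (sham, day 3, day 7, day 14) and 0.367, 0.325, 0.370 and 0.314 in later B cells. Late neutrophils had a smaller share of both kinds of transcript and a nuclear-to-mitochondrial ratio 2.42-fold that of later B cells (log2 difference 1.27 ± 0.21, SD over 4 pools; higher in 4 of 4; exact two-sided sign-flip permutation p = 0.125, the smallest that 4 pools allow). Over all neutrophils the ratio was 1.64-fold that of the B lineage (log2 difference 0.71 ± 0.13, 4 of 4 pools) and 1.53-fold that of T and NK cells (0.61 ± 0.05, 4 of 4 pools), with the same exact permutation p of 0.125 for each.

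Within a lineage the ratio also differed by stage. B precursors had 0.484, 0.533, 0.614 and 0.490, above later B cells in all 4 pools (log2 difference 0.62 ± 0.15, 1.54-fold, exact permutation p = 0.125). Granule-making neutrophils were below late neutrophils in all 4 pools, at 0.678, 0.747, 0.756 and 0.750 (log2 difference -0.18 ± 0.09, exact permutation p = 0.125), but the difference was -0.053 ± 0.10 with a gate at 5 UMIs and 5% S100a8 with S100a9. T and NK cells together did not differ from the B lineage beyond the spread (0.10 ± 0.17, higher in 3 of 4 pools, exact permutation p = 0.375), although as a median over barcodes the log2 difference was 0.39 ± 0.10. None of these 6 comparisons could reach 0.05 in this design, before or after adjustment over the 6.

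The most abundant transcripts were Cox8a (10902 UMIs over all barcodes), Atp5e (10418), Cox4i1 (9866), Cox7c (8331) and Cox6c (7839). Cox4i1, Cox6c, Cox7c and Cox8a code for nuclear-coded subunits of cytochrome c oxidase, and Atp5e for the epsilon subunit of the ATP synthase. Their levels over the classes differed by gene, with Cox8a, Cox7c and Cox6c as examples. Cox8a was at 461 CPM in granule-making and 545 CPM in late neutrophils, against 896 CPM in B precursors, 642 CPM in later B cells and 726 CPM in T cells. Cox7c was at 299 CPM in granule-making but 94.9 CPM in late neutrophils, against 792, 590 and 626 CPM in B precursors, later B cells and T cells. Cox6c followed Cox7c (318, 102, 787, 503 and 593 CPM in the same order), so subunits of a single complex kept very different levels in the late stage.

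The comparison of granule-making with late neutrophils showed that difference gene by gene. Of 76 genes with at least 20 UMIs in the neutrophil sums, 57 were higher in the granule-making stage and 0 were lower (edgeR quasi-likelihood test with pool as a block, Benjamini-Hochberg adjusted p under 0.05), while 23.3% of all 7231 genes tested were higher and 15.7% lower. At an unadjusted p under 0.05 edgeR also had 0 lower, and DESeq2 called 48 higher and 0 lower. The median log2 difference was 1.25 over the 76 genes and 0.29 over all genes tested. The low-count filter favours genes that are high in the deeper granule-making sums; with no filter 54 of 83 were higher. With library size alone 49 were higher and 0 lower, as the median of all genes moved from 0.29 to 0.09. The 13 mitochondrial-coded genes were all higher too, with a median of 1.34, from 0.77 for mt-Nd5 to 3.16 for mt-Nd6. The mt-Nd6 value had the largest SE of the 13 (1.16). This gene had 19 UMIs on day 3 and 8 in sham in granule-making neutrophils, and too few in late neutrophils for any day ratio.

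All 10 tested genes of the cycling list were also higher in the granule-making stage (median log2 difference 5.68), and 8 of 9 immediate early genes were lower. With granule-making barcodes that held no UMI of a cycling gene, an alternative chosen after seeing the data, 43 of 74 genes were higher and the median was 0.83. The cycling genes' part in the difference between the stages was otherwise not tested.

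Genes of each of the 4 complexes were higher, in unequal numbers. For the ATP synthase 13 of 15 genes were higher (median log2 difference 1.06), for the accessory genes of complex I 22 of 26 (1.25), for complex III 6 of 8 (1.14) and for complex IV 8 of 12 (1.29). For the Ndufs and Ndufv genes, which include the catalytic core of complex I, 5 of 11 were higher (0.96), from 0.21 to 1.91 for Ndufs6. For the assembly factors 3 of 4 were higher (1.53). Within each role the genes ranged more widely than the medians of the roles.

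**Figure D2:**
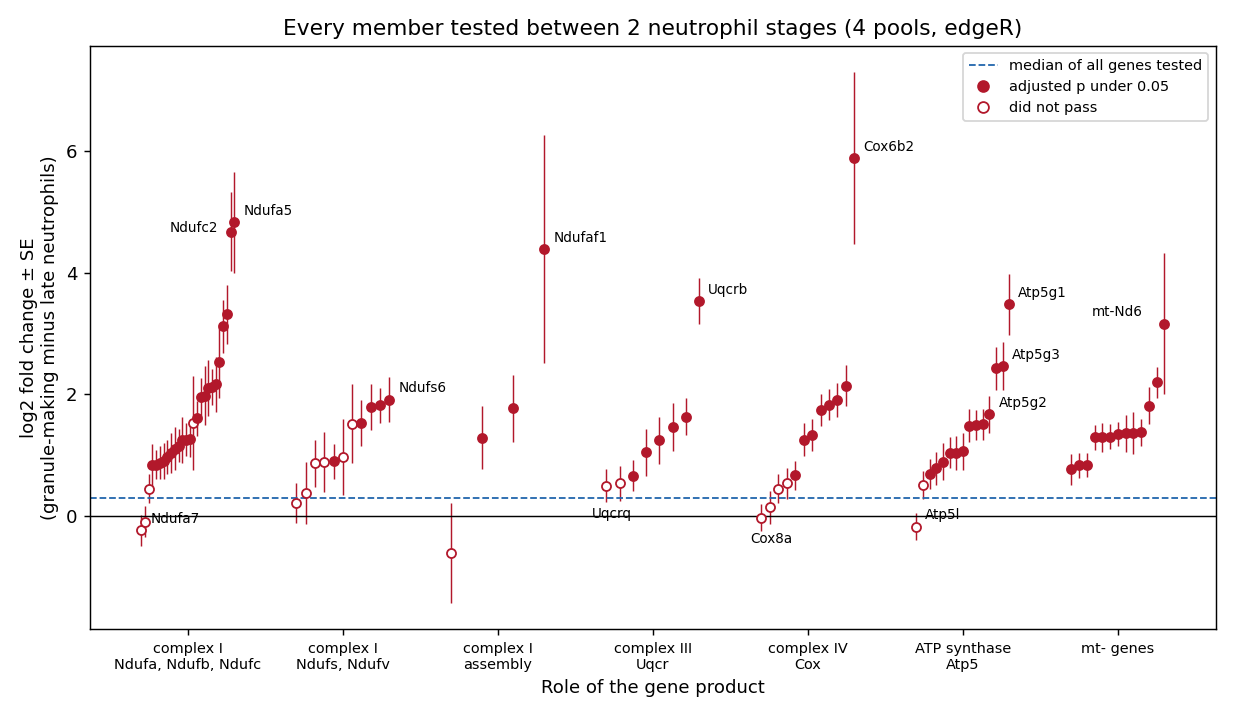
Log2 difference ± SE between granule-making and late neutrophils (y axis, positive is higher in granule-making) for each gene tested, grouped by role (x axis), with the 13 mt- genes as a group of their own and the median of all genes as a dashed line. Filled points passed the edgeR test; the medians of the nuclear-coded roles lie between 0.96 and 1.53, while single genes range from -0.62 to 5.88.

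The ATP synthase includes 3 genes for one protein, with unequal counts in late neutrophils. Atp5g1, Atp5g2 and Atp5g3 code for the same mature subunit c, the ring that turns as protons pass, and differ in the targeting peptide that is removed on import. Atp5g1 (chr11:96068852-96075670, minus strand, GRCm38) was at 107, 81.5, 16.7 and 77.0 normalised CPM in the granule-making sums of sham, day 3, day 7 and day 14, and at 6.99, 4.24, 13.6 and 0 in the late sums. The groups did not overlap, although day 7 came within a small margin, and the log2 difference was 3.47 ± 0.51 (SE; edgeR adjusted p = 1.56e-10). Atp5g3 (chr2:73908447-73911326, minus strand) was at 106, 89.8, 50.2 and 96.2 against 14.0, 23.3, 9.10 and 5.56 normalised CPM (2.46 ± 0.40). Atp5g2 (chr15:102662864-102672352, minus strand) kept the highest late level, at 21.0, 44.6, 72.8 and 55.6 normalised CPM against 181, 164, 87.0 and 204 (1.66 ± 0.30). In late neutrophils Atp5g2 thus gave 50 UMIs, Atp5g3 16 and Atp5g1 6. In granule-making neutrophils Atp5g1 gave 266, Atp5g2 556 and Atp5g3 301 UMIs, and whether the 3 log2 differences differ from one another was not tested.

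The sequence before each of the 3 start sites is shown because these genes make one product and kept unequal late levels. The stretches are from RefSeq (GRCm38.p6), taken from the 250 bases before the annotated start without any base in an annotated exon, and read 5′ to 3′ on the minus strand; capitals mark the letters CCAAT on either strand. The coordinates are chr11:96075671-96075881 for Atp5g1 (the 39 bases next to the start left off), chr15:102671128-102671297 for Atp5g2 (80 left off) and chr2:73911327-73911576 for Atp5g3 (0 left off). The Atp5g2 stretch lies within the annotated span of the gene, outside its exons.
Atp5g1: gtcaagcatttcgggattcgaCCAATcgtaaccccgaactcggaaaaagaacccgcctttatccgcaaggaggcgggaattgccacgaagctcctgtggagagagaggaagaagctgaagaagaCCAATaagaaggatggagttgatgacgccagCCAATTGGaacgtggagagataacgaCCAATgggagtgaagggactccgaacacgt
Atp5g2: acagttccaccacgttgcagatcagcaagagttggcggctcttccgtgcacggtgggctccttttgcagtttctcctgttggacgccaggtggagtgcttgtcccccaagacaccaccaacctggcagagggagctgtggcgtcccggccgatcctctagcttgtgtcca
Atp5g3: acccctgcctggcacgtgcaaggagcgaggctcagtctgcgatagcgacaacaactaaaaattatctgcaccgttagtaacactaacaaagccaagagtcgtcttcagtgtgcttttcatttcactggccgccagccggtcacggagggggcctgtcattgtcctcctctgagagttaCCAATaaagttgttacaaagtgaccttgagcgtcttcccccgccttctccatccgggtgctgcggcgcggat
The Atp5g1 stretch held CCAAT 5 times, counting both strands of one CCAATTGG, the Atp5g3 stretch held it 1 time and the Atp5g2 stretch 0 times. The other letters searched (CGCNTGCG, CCGGAAG, AAGATGGCG and TATAAA) were not in these 3 stretches; the parts of the windows not shown hold CGCNTGCG for Atp5g2 and Atp5g3.

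Over the full windows of 250 bases before to 50 after the start, 70 of the 84 genes had a RefSeq entry, as had 27025 symbols in all. The letters CGCNTGCG, the core of the site of NRF1, a regulator of many respiratory genes, were in 26 of 70 windows (37.1%) and in 9.22% of all windows, on either strand. The ETS letters CCGGAAG were in 16 (22.9%) against 9.93%, and the YY1 letters AAGATGGCG in 8 (11.4%) against 1.64%. CCAAT was in 42.9% against 41.1%, and TATAAA in 8.57% against 15.7%. Genes with and without the NRF1 letters had median log2 differences between the neutrophil stages of 1.25 and 1.42. With and without the ETS letters the medians were 0.92 (9 of 16 called higher) and 1.53 (41 of 49). They were 1.52 and 1.25 for the YY1 letters and 1.27 and 1.46 for CCAAT; none of these gaps was tested. A match is a description of these letters and not a binding site.

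The largest differences were in accessory subunits with almost no UMIs in late neutrophils. Uqcrb (chr13:66900617-66905378), a subunit of complex III near the ubiquinone site, was at 208, 168, 87.0 and 202 against 6.99, 12.7, 13.6 and 22.2 normalised CPM (3.53 ± 0.38, edgeR adjusted p = 5.55e-19). Ndufa5 (chr6:24518666-24528013), of the peripheral arm of complex I, had 127 UMIs in granule-making and 1 in late neutrophils (normalised CPM ratio 38.6, 95% counting interval 6.80 to 1535). Ndufc2 (chr7:97400003-97407802), of its membrane arm, had 198 against 2 UMIs (normalised CPM ratio 30.1, 8.21 to 250). These 3 genes separated the stages in every pool, and their late levels rest on few molecules. Ndufa5, Ndufc2, Cox6b2, Uqcrb and Atp5g1 passed the minimum of 20 UMIs through the granule-making stage alone. Other genes did so too, among them the assembly factor Ndufaf1 (21 against 0 UMIs), and the filter favours this direction. Cox6b2 (chr7:4751792-4753094), known as a testis isoform of a complex IV subunit, had 61 UMIs against 0 (at least 6.17-fold higher in normalised CPM, against a floor of 3 UMIs over the stage), and its call was lost in DESeq2.

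Several abundant genes were also higher in the granule-making stage, by differing amounts. Cox7c was at 395, 327, 218 and 356 against 112, 91.2, 91.0 and 89.0 normalised CPM (log2 difference 1.74 ± 0.26). Ndufa4, first listed with complex I and now known as a complex IV subunit, was at 258, 227, 104 and 256 against 48.9, 67.9, 27.3 and 38.9 (2.11 ± 0.30). Cox5a (1.90), Cox6c (1.83) and Cox7b (2.14) were called higher as well. Cox4i1, a regulatory subunit, differed less, at 451, 420, 291 and 464 against 273, 276, 227 and 239 (0.66 ± 0.23).

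Genes that did not pass the test between the stages included some of the most abundant. Atp5e was at 540, 503, 368 and 496 against 252, 435, 350 and 295 normalised CPM, with overlapping groups (0.50 ± 0.23, edgeR adjusted p = 0.067). Cox8a was at 525, 515, 472 and 527 against 447, 569, 559 and 506 normalised CPM, with overlapping groups (-0.03 ± 0.22, edgeR adjusted p = 0.926). Atp5l, subunit g of the ATP synthase, was at 323, 358, 315 and 381 against 385, 458, 318 and 395 (-0.18 ± 0.23). The accessory genes Ndufa7 (-0.24) and Ndufb9 (-0.10) were not called either. Cox8a and Cox7c, both of complex IV, thus differed in whether the stages could be told apart.

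**Figure D3:**
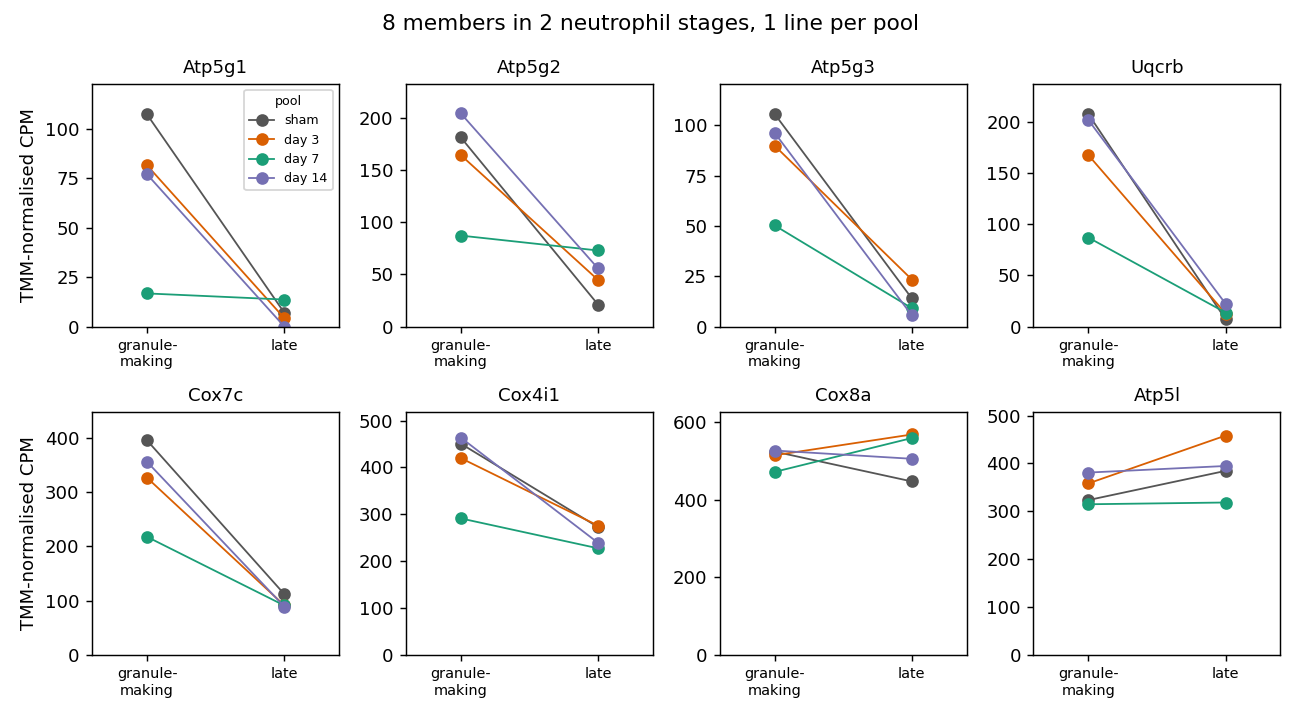
Normalised CPM (y axis, from 0) of 8 respiratory genes in granule-making and late neutrophils, 1 line per pool. Uqcrb, Atp5g1 and Cox7c separate the stages in every pool, whereas the points of Cox8a and Atp5l overlap.

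The counts of other mitochondrial gene lists are to be read beside the 23.3% higher and 15.7% lower among all genes tested. In these lists too the low-count filter favours genes that are high in the granule-making sums. Late UMIs of the single genes named are not given, and large differences may rest on few late molecules. Cyc1 (2.45) and Cycs (1.84), which code for cytochromes c1 and c, were both higher in granule-making neutrophils, whereas 0 of the 4 genes of complex II, another entry point of the chain, were called (median 0.43). Of the tricarboxylic acid cycle 5 of 13 genes were higher, with Idh3a at 4.82 and Fh1 at 3.22. Of mitochondrial import 5 of 12 were higher (Timm13 3.98, Timm44 2.60), and of mitochondrial DNA expression 2 of 5 (Tfam, and Ssbp1 at 2.78). Of the complex IV assembly genes 5 of 15 were higher and 2 lower, with Cox18 at 5.19 and Cox16 at 5.07. Glycolysis was higher in 9 and lower in 2 of 16 genes, with Ldha at 2.11 and the glucose transporter gene Slc2a1 at -2.42. None of 5 genes for regulators of respiration was called.

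Set against the B lineage, late neutrophils had lower levels of most respiratory genes. Of 83 genes tested 67 were lower and 2 higher (edgeR; 43.9% and 21.3% of all genes tested), with a median log2 difference of -1.74 over the 83 and -1.07 over all genes; this comparison was added after seeing the data. All 8 complex III genes were lower, as were 11 of 14 of complex IV, 13 of 16 of the ATP synthase, 20 of 26 accessory genes of complex I, 8 of 11 Ndufs and Ndufv genes and 7 of 8 assembly factors. The 2 genes that were higher were Atp5l (0.42) and Ndufb9 (0.49), a direction that rests on TMM scaling: in plain CPM Atp5l was at 412 in late neutrophils, 541 in B precursors and 432 in later B cells, and Ndufb9 at 179, 224 and 173. Cox8a (0.15), Ndufb7 (0.25), Ndufv3 (-0.17) and Atp5f1 (-0.27) were not called. All 13 mitochondrial-coded genes were lower, with a median of -2.19, from -1.17 for mt-Co1 to -4.93 for mt-Nd6. The mt-Nd6 value had the largest SE of the 13 (0.76) and rests on few late UMIs. In the same comparison 12 glycolysis genes were higher and 0 lower, and 11 tricarboxylic acid cycle genes, 10 import genes and 3 of 4 complex II genes were lower.

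B lineage barcodes in the gated classes held 7573 to 8591 CPM of B markers and late neutrophils 12 CPM. The gates hold the late value low, since barcodes in 2 gates had been left out. The part of RNA from other cells in the low respiratory counts of late neutrophils was not tested.

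Over all neutrophils, in which the granule-making stage held most UMIs, the difference from the B lineage was mixed. Of 83 genes 11 were higher and 30 lower (27.6% and 34.1% of all genes tested), with a median log2 difference of -0.21 against -0.29 over all genes. This split depends on scaling: with library size alone 0 were higher and 77 lower, and the median of all genes moved from -0.29 to -1.48. The assembly factor Ndufaf4 was lower by a log2 difference of -3.58 ± 0.50, and Ndufaf6 by -2.06. Ndufs3, a core subunit of the peripheral arm of complex I, was at 26.3, 24.3, 23.6 and 26.2 normalised CPM in neutrophils and at 74.5, 68.3, 69.5 and 74.8 in the B lineage (-1.52 ± 0.23). Ndufs8, which carries iron-sulfur clusters, was also lower (-1.49 ± 0.20). The groups did not overlap for Ndufs3, and both genes were lower with library size alone as well. Cox6a2 had 0 UMIs in neutrophils and 36 in the B lineage (at least 7.92-fold lower in normalised CPM, against a floor of 3 UMIs).

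Among the genes higher in neutrophils, Ndufv3, of the flavoprotein part of complex I, was at 218, 285, 231 and 222 against 81.6, 80.5, 97.1 and 68.7 normalised CPM (1.54 ± 0.19). It was not called with library size alone (0.35). Ndufb7, an accessory subunit of the membrane arm, was at 445, 504, 424 and 448 against 214, 194, 188 and 183 (1.22 ± 0.16; 0.04 with library size alone, not called). Ndufa13 (1.08), Ndufa3 (0.93) and Ndufb9 (0.73) turned to -0.11, -0.26 and -0.46 with library size alone, so their direction rests on the scaling. Of the mitochondrial-coded genes 12 of 13 were lower, mt-Nd3 most (-1.89), and mt-Co1 was not called (-0.21). Glycolysis was higher in 15 of 16 genes, with Hk3 at 8.71 and Slc2a3 at 5.40. Import was lower in 11 of 15 genes and higher in 1.

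Against T and NK cells, neutrophils had 12 genes higher and 18 lower of 83 (25.8% and 26.4% of all genes tested), and 1 higher and 74 lower with library size alone, where the median of all genes moved from -0.10 to -1.16. Ndufaf4 (-3.88), Ndufs3 (-1.61), Ndufaf2 (-1.34), the complex I accessory gene Ndufa9 (-1.32) and Atp5a1 (-1.21), for the alpha subunit of the ATP synthase, were among the lower genes. Cox6a2 had 0 UMIs against 14 (at least 7.59-fold lower in normalised CPM, against a floor of 3 UMIs). A single NK barcode of the day 3 pool held 11 Cox6a2 UMIs, so this difference rests largely on 1 barcode. The T and NK sums of days 7 and 14 held 0. Ndufb7 (1.25), Atp5f1 (0.84), Ndufb9 (0.80) and Ndufb8 (0.79) were higher, of which the last 3 turned to -0.22, -0.27 and -0.27 with library size alone. Cox6b2 had 66 UMIs against 3 (normalised CPM ratio 13.5, 4.43 to 67.2, a size that depends on the scaling), and late neutrophils held 0 of the 66.

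T and NK cells differed least from the B lineage, with 2 genes higher and 8 lower of 83 (15.4% and 14.9% of all genes tested; median -0.14 over the 83 and -0.06 over all). With library size alone the split was 1 and 13, the median of all genes moving from -0.06 to -0.19. The lower genes included Ndufs8 (-1.07), Ndufc2 (-0.83) and Ndufs5 (-0.70), all of complex I. Cox6b2 had 3 UMIs in T and NK cells and 71 in the B lineage (normalised CPM ratio 0.10, 0.02 to 0.32). Ndufv3 (0.77) and Ndufa13 (0.47) were higher. Of the mitochondrial-coded genes 1 of 13 was lower, and of 16 glycolysis genes 9 were higher (Pfkp 2.35, Slc2a3 2.10).

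Several complex IV subunits have a second gene known mainly from muscle, testis or lung. Most of these were rare here, with Cox6b2 and Cox6a2 as exceptions. Cox7a1, a heart and muscle form, had 45 UMIs in 41 barcodes, and Cox4i2 had 9 UMIs in 7. Cox8c and Ndufa4l2 were at 0. Cox6b2 had 392 UMIs in 193 barcodes, among them 51 UMIs in 20 myeloid progenitor barcodes, 58 in 40 B precursor barcodes and 61 in 30 granule-making barcodes, but 0 in late neutrophils. Later B cells had 13 Cox6b2 UMIs in 8 barcodes, fewer than B precursors.

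Cox6a2 (chr7:128205435-128206387), the heart and muscle form of subunit VIa, was concentrated in a small set of barcodes. It had 575 UMIs in 56 barcodes, against 3534 UMIs in 1002 barcodes for its general counterpart Cox6a1. Barcodes gated as plasmacytoid dendritic cells held 198 of these UMIs in 5 of 7 barcodes, and barcodes in 2 or more gates held 264 in 13. Granule-making and late neutrophils held 0.

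Siglech, a surface lectin known from plasmacytoid dendritic cells, marked the barcodes with most Cox6a2 UMIs, though 37 of the 56 barcodes with Cox6a2 held 0 Siglech UMIs. The 24 barcodes with at least 3 Siglech UMIs, a limit chosen after seeing the values, held 417 of the 575 Cox6a2 UMIs (72.5%). Cox6a2 was found in 15 of these 24 (62.5%, exact binomial 95% interval 40.6 to 81.2) and in 41 of the other 1532 barcodes (2.68%, 1.93 to 3.61), with median depths of 12544.5 and 6396 UMIs. The intervals count barcodes, not mice or pools, and cover the sampling of barcodes only. Its level was 1152 CPM against 10.3 CPM, while Cox6a1 was at 232 and 224 CPM. The Siglech barcodes were thus high in Cox6a2 while their Cox6a1 level was close to that of the other barcodes.

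By pool the single-hashtag Siglech barcodes numbered 6 in sham, 9 on day 3, 5 on day 7 and 2 on day 14. They held 150, 169, 28 and 50 Cox6a2 UMIs, or 1552, 1316, 366 and 1221 CPM, against 238, 210, 288 and 195 CPM of Cox6a1. Cox6a2 was found in 4 of the 6, 7 of the 9, 2 of the 5 and 1 of the 2 barcodes. Single barcodes held 121 of the 150 sham UMIs, 26 of the 28 day 7 UMIs and all 50 of day 14, so the pool levels rest on them and give no order between pools. Of 19 barcodes with at least 5 Cox6a2 UMIs, 14 had at least 3 Siglech UMIs. The other 5, which include 2 myeloid progenitor barcodes and 1 NK barcode, held between 7 and 54 Cox6a2 UMIs. Barcodes in 2 or more gates may hold 2 cells, and no doublet caller was run.

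**Figure D4:**
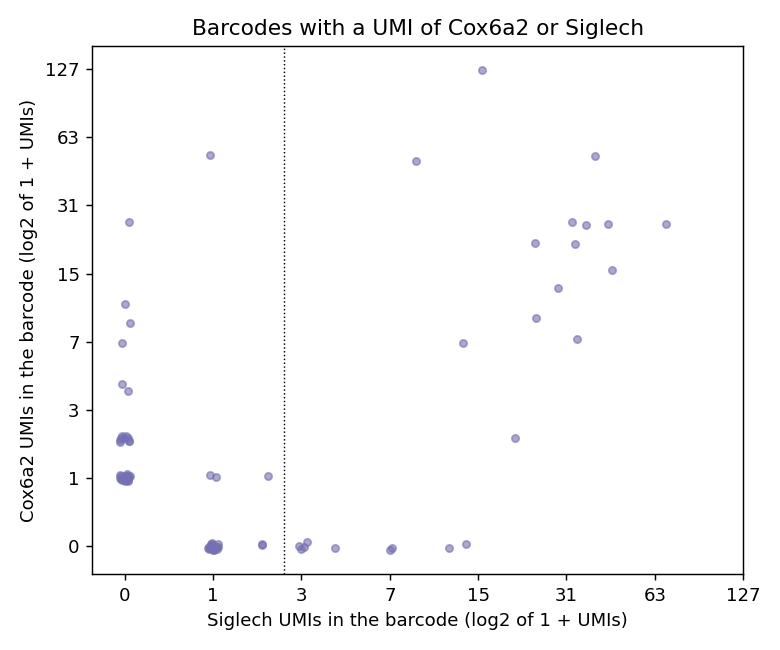
Cox6a2 UMIs (y axis) against Siglech UMIs (x axis) per barcode, 1 slightly jittered point per barcode with a UMI of either gene, both axes as log2 of 1 + UMIs. Of the 19 barcodes with at least 5 Cox6a2 UMIs, 14 have at least 3 Siglech UMIs; the highest holds 121.

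Between days, with the main gates, the summed respiratory level stayed within 0.916 to 1.16 of sham in every class compared, except in the granule-making stage on day 7. Ratios of CPM to the sham pool were computed for genes with at least 20 UMIs in the 2 pools together; the intervals cover counting error only, since molecules and not mice are counted. On day 7, 42 of 69 genes in granule-making neutrophils were at least 1.5-fold lower and 0 were higher, beside 47.4% of all genes past 1.5-fold either way and 29.2% lower. The median ratio was 0.592, and 39 of the 42 had an interval clear of 1. The summed ratio was 0.650 (0.621 to 0.680), and that of the mitochondrial-coded genes was 0.583 (0.561 to 0.606).

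The lower genes came from each role: 13 of 15 of the ATP synthase, 13 of 25 accessory genes of complex I, 3 of 8 Ndufs and Ndufv genes, 4 of 8 of complex III, 8 of 12 of complex IV and the 1 assembly factor counted. Atp5g1 had 5 UMIs on day 7 and 64 in sham, or 14.5 against 98.7 CPM (ratio 0.147, 0.0462 to 0.361). Ndufa4 had 31 UMIs against 154 (0.379, 0.249 to 0.560). Cox6b2, with 1 UMI against 19, just reached the minimum of 20 UMIs, mostly through sham. Genes with few day 7 UMIs, Atp5g1 among them, passed this minimum through sham, which favours lower ratios. Other genes were not past 1.5-fold, among them Ndufa13 (1.19, 95 against 150 UMIs), Ndufa1 (1.14), Ndufv3 (0.967) and Ndufb9 (0.921). These 4 were chosen after their values were seen.

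The granule-making barcodes of day 7 also differed in stage. They were 25, against 36 in sham, and held 11.6 CPM of primary granule genes (Elane, Mpo, Prtn3, Ctsg and Ms4a3) against 4004 CPM in sham, 2351 CPM on day 3 and 76.5 CPM on day 14. Cycling genes summed to 8.71 CPM against 464 in sham, 764 on day 3 and 2010 on day 14. The part of these differences in the lower respiratory levels was not tested. With a stricter gate (5 UMIs and 5% S100a8 with S100a9) 27 genes were past 1.5-fold and the summed ratio was 0.786.

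On the other days fewer respiratory genes of the granule-making stage were past 1.5-fold. On day 3, 6 of 74 genes were past 1.5-fold (24.7% of all genes) with a summed ratio of 0.916 (0.892 to 0.941), and on day 14, 4 of 73 (27.1%) with 0.983 (0.951 to 1.02). Leaving out each gene's top barcode, with pool totals kept whole, turned the day 3 sum to 1.01. The top barcode held more of the sham UMIs (for Cox8a 11.8%) than of the day 3 UMIs (3.6%), so this step in itself raises the ratio. The T gate as first written gave 15 genes and a sum of 0.871 on day 14. Ndufab1, which codes for the mitochondrial acyl carrier protein in complex I, was at 0.451 (0.309 to 0.663) on day 3 and 0.446 (0.248 to 0.774) on day 14. The assembly factor gene Ndufaf3 was at 1.89 on day 3 and 2.71 (1.25 to 6.34) on day 14. Ndufb2 was at 0.657 on day 3, and Ndufa11 at 0.591 (0.376 to 0.914) on day 14.

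**Figure D5:**
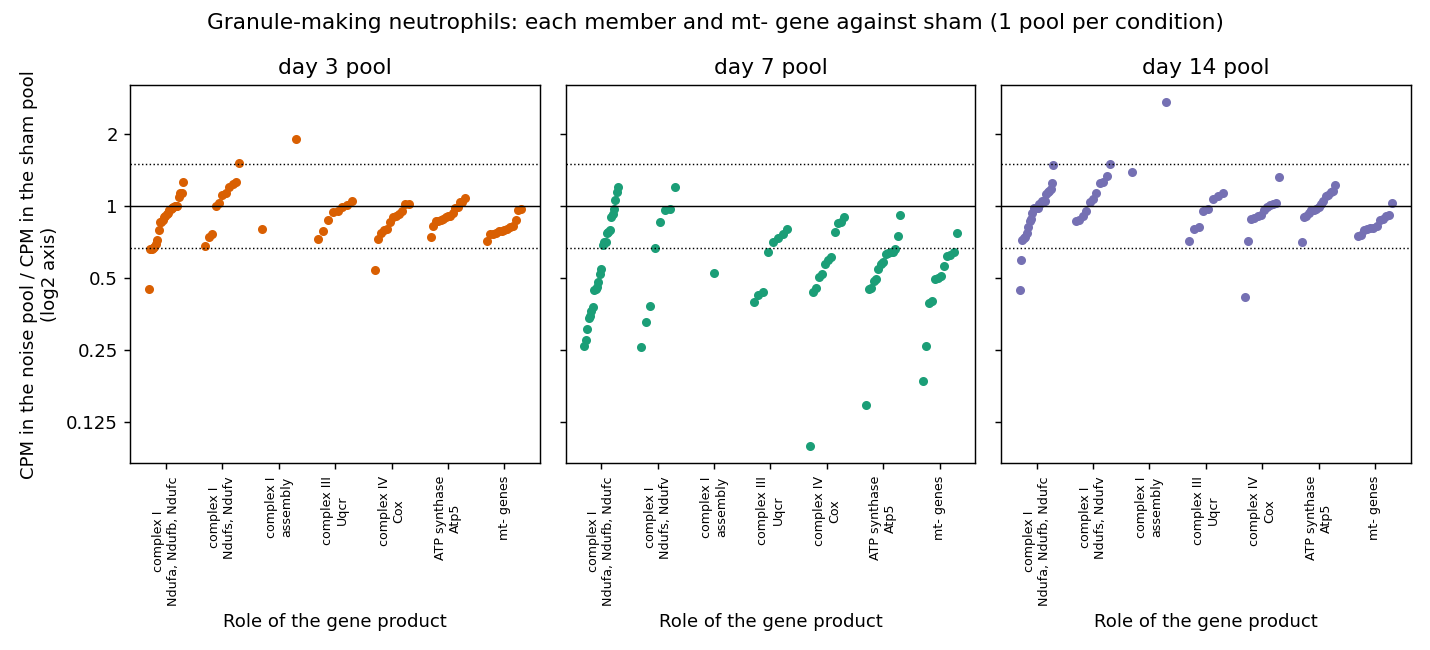
Ratio of CPM in the day 3, day 7 and day 14 pools to the sham pool (y axis, log2 scale) in granule-making neutrophils, 1 point per gene, grouped by role (x axis), with dotted lines at 1.5-fold. The day 7 points lie lower, with a median of 0.592 over the nuclear-coded genes against 0.916 on day 3 and 0.979 on day 14.

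With the main gates late neutrophils had summed respiratory ratios near 1, at 0.998 (0.917 to 1.09), 1.01 (0.922 to 1.12) and 1.00 on days 3, 7 and 14. The mitochondrial-coded sum was at 0.895, 0.793 and 0.832. The respiratory sum rose above these intervals on day 7 with the stricter gate and with the first T gate. On day 3 it did so without each gene's top barcode, and the closing section gives these values. Past 1.5-fold were 15 of 44 genes on day 3 (31.9% of all genes), 7 of 31 on day 7 (27.6%) and 7 of 28 on day 14 (26.3%), so the respiratory counts were near the background of all genes. The sham sum rests on 22 barcodes. Ndufa6 had 41 UMIs on day 3 against 2 in sham (4.36, 1.13 to 37.2), and Cox7c was at 0.572. Atp5j2 and Atp5j, of the membrane part and stalk of the ATP synthase, were at 1.79 and 1.60 on day 7 and at 1.85 and 1.62 on day 14. On day 7 Uqcrh was at 0.526 (0.275 to 1.00) and Cox5b at 0.638.

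In lymphocytes a smaller share of respiratory genes than of all genes was past 1.5-fold. B precursors had 2 of 77 on day 3 (19.1% of all genes), 6 of 78 on day 7, all higher (26%), and 2 of 77 on day 14 (23.6%), with summed ratios of 1.05, 1.16 (1.13 to 1.19) and 0.996. The respiratory genes and the background were not matched for level. On day 7 Ndufc1 was at 1.60 (1.22 to 2.10) and Ndufc2 at 1.54 (1.18 to 2.01), while the mitochondrial-coded sum was at 0.913. The Rieske protein gene Uqcrfs1, of complex III, was at 0.651 (0.447 to 0.934) on day 14, and Ndufaf4 at 1.92 on day 3.

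Later B cells had 3 of 73 genes past 1.5-fold on day 3 (26.7% of all genes), with Ndufs6 at 1.59 (1.09 to 2.33) and Ndufa3 at 1.51. T and NK cells had 7 of 74 on day 3 (24.5%) and 3 of 72 on day 7 (27.2%), with summed ratios of 1.09 (1.06 to 1.13) and 1.08. On day 3 Ndufaf3 was at 4.73 (1.67 to 18.5), Ndufb3 at 1.55 and Cox7a2l at 0.665 (0.541 to 0.818). On day 7 Ndufa10, of complex I, was at 2.64 (1.49 to 4.87) and Atp5g1 at 1.56 (1.14 to 2.14), opposite to its ratio in granule-making neutrophils.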

How the data were processed

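One gene expression library and one hashtag library from 4 pools of 6 mice were used. The deposited values are raw UMI counts per gene and barcode, made with Cell Ranger 3.1.0 per the file headers, on mm10 per the submitters' processing notes; how reads shared by paralogs and pseudogenes were counted is not stated there, so genes with near-identical copies are uncertain.

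A barcode was given to a pool where its top hashtag had at least 10 UMIs and 80% of hashtag UMIs. Barcodes with under 200 genes or over 10% mt- UMIs were left out, as were barcodes in 2 or more gates (96) or none (86); no doublet caller was run. Gates needed 3 UMIs of their markers (5 for progenitors). The T gate as first written took neutrophils through Cd3d, so it was reset on marker counts to 3 UMIs from at least 2 markers.

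Counts were summed per class and pool (at least 10 barcodes) and fitted over all genes with at least 20 UMIs by edgeR 4.0.16 (TMM, quasi-likelihood, pool as block; R 4.3.3), with adjusted p under 0.05 called. DESeq2 1.42.0, other filters and gates, and each pool left out were alternatives. TMM-normalised CPM are printed as normalised CPM. Ratios between pools used plain CPM, classes with at least 30 barcodes (20 for neutrophil stages, chosen after seeing the data) and exact conditional Poisson 95% intervals, which cover counting error only. Tests on simulated data recovered 62% of genes changed 2-fold in the neutrophil to B lineage comparison (10410 genes) and 39% between the neutrophil stages (6631 genes); at 1.5-fold these were 10% and 8%.

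Within each class comparison the same pool gives both sums, so the block pairs them by mice and by library. The genes named are the 5 called genes with the largest difference each way per class comparison, the most abundant per complex, the minor isoforms and subunit c genes, the day ratios whose interval lies farthest from 1, the mt- genes and, per pathway list, the 2 largest calls; others were chosen after their values were seen, and 1 gene that this rule names is not reported here. The genes and lists were chosen with earlier results of these data known.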

Additional observations from a re-analysis of the deposited data

Results flagged for a closer look

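Cox8b, the muscle and brown fat form of a complex IV subunit, stood out in barcodes that no comparison used. It had 19 UMIs in 16 of the barcodes without a single hashtag and 2 UMIs in the 1359 with one. All 19 UMIs were in the 152 barcodes with under 10 hashtag UMIs, where Cox8b was at 186 CPM, against 0.135 CPM in hashtagged barcodes, below the limit of 0.203 CPM that a count of 0 allows there. The same 152 barcodes held 295300 CPM of Ttr, known from choroid plexus and liver, against 0.271 CPM in hashtagged barcodes. They had a median of 623 UMIs, 12.2% mt- UMIs and 3.91% respiratory UMIs. What these barcodes are was not tested.

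For 4 genes the day 7 ratio to sham was at least 1.5-fold in opposite directions in 2 classes, with both counting intervals clear of 1 and 1 pool each. The difference between the classes was not tested. Atp5g1 was at 1.56 in T and NK cells and at 0.147 in granule-making neutrophils. Ndufa6 was at 6.06 in late and 0.518 in granule-making neutrophils, the first value against 2 sham UMIs. Ndufc1 was at 1.60 in B precursors and 0.443 in granule-making neutrophils. Ndufc2 was at 1.54 in B precursors and 0.458 in granule-making neutrophils.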

How the results depend on the processing

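Of 469 values of named genes under alternatives, 437 kept direction and call, 21 lost the call and 11 reversed; of 362 other values, 300 stayed close, 61 moved and 1 reversed. Causes of these moves were not tested.

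Class comparisons depended most on scaling. With library size only, genes higher and lower in neutrophils were 0 and 77 against the B lineage and 1 and 74 against T and NK cells; T and NK cells against the B lineage gave 1 and 13. Ndufa13 (-0.11), Ndufa3 (-0.26) and Ndufb9 (-0.46) then reversed against the B lineage, and Atp5f1 (-0.22), Ndufb8 (-0.27) and Ndufb9 (-0.27) against T and NK cells. With late neutrophils in place of all, the counts were 2 and 67 against the B lineage and 1 and 62 against T and NK cells; Ndufa3 (-0.044), Ndufv3 (-0.17), Atp5f1 (-0.003), Ndufb8 (-0.46) and Cox6b2 (-3.12) reversed. Leaving out each pool in turn gave 7 at the lowest higher than in the B lineage and 5 higher than in T and NK cells (both without day 3), and in T and NK cells against the B lineage 1 higher (without sham, day 3 or day 14) and 5 lower (without day 3). The T gate as first written gave 6 higher in both neutrophil comparisons. The 2 genes higher in T and NK cells than in the B lineage became 6 in DESeq2, 5 at a minimum of 100 UMIs, and 1 without a low-count filter, without the mt- limit and with the first T gate. Without the pool as a replicate block, the higher and lower counts were 11 and 30, 13 and 20, 3 and 8, and 57 and 0 in the order of neutrophils against B lineage, against T and NK cells, T and NK cells against B lineage, and granule-making against late neutrophils, so the pairing by pool changed no count by over 1.5 times. The count of 57 between the neutrophil stages ranged from 41 to 59 with each pool left out.

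The log2 ratio of nuclear-coded to mt- UMIs as a median over barcodes was 1.34 (neutrophils to B lineage), 0.94 (to T and NK cells), 0.39 (T and NK to B lineage) and 1.71 (late neutrophils to later B cells). It was 0.71 for neutrophils to T and NK cells without the mt- limit, and -0.053 between the neutrophil stages with the gate at 5 UMIs and 5% S100a8 with S100a9.

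Counts past 1.5-fold between pools depended on the minimum of UMIs. At 10 UMIs they were 18 and 16 in late neutrophils on days 7 and 14, 5 in B precursors on day 3, 6 in later B cells and 7 in T and NK cells on day 7. At 50 UMIs they were 5, 0 and 0 in late neutrophils, 2 in granule-making neutrophils on day 14, and 0 and 1 in B precursors on days 3 and 14. Without mt-, ribosomal protein and top 20 genes, sums were 0.966 (B precursors, day 14), 0.975 (later B) and 1.05 with 3 genes (T and NK, day 3). Without each gene's top barcode, sums were 1.18 (late, day 3), 1.01 with 3 genes (granule-making, day 3, reversed), 1.01 and 0.961 with 4 genes (B precursors, days 3 and 14) and 1.05 (T and NK, day 3), and 6 genes counted in T and NK cells on day 7. Pool totals were kept whole in that step, which lowers more the pool where top barcodes hold a larger part. With the gate at 5 UMIs, late neutrophils on day 7 had 16 genes and 1.37, granule-making neutrophils on day 7 had 27 and 0.786, and later B cells 5. With the first T gate, late neutrophils had 1.09 on day 3 and 3 genes and 1.17 on day 7, and granule-making neutrophils on day 14 had 15 and 0.871. Depth limited late neutrophils most, with 28 to 44 of 84 genes at 20 UMIs.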
